A study of Mus musculus with 6 samples.

Results

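The rod phototransduction activation cascade was examined through the 8 genes that encode its signaling proteins downstream of the photopigment: the transducin subunits *Gnat1*, *Gnb1* and *Gngt1*, the phosphodiesterase 6 (PDE6) subunits *Pde6a*, *Pde6b* and *Pde6g*, and the cyclic nucleotide-gated channel subunits *Cnga1* and *Cngb1*. These genes were chosen by name, for the role of their proteins. All 8 were found among the 31169 genes of the count table, and all 8 passed the filter on low counts that left 17707 genes for testing. Polyadenylated RNA of whole retina was sequenced from male C57BL/6 mice, with 3 saline and 3 microbead libraries. The saline group received an injection of saline into the anterior chamber at 1 month of age, and its retinas were collected 4 weeks later, at 2 months of age. The microbead group received beads of 15 μm diameter in the same way, at the same age and for the same time, to obstruct aqueous outflow and elevate intraocular pressure (IOP). The comparison asks how transcription in the retina differs between these groups. Injections were bilateral, and no source used here states that the libraries of a group came from separate animals, so the p-values measure the spread between libraries, part of which may be technical.

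In rods, light-activated photopigment drives nucleotide exchange on the α subunit of transducin, which then parts from the βγ dimer and relieves the inhibition of PDE6. The freed catalytic subunits hydrolyze cGMP, the channel in the plasma membrane of the outer segment closes, and the rod hyperpolarizes. Rods are the most numerous neurons of the mouse retina, and loss of function of several of these genes causes stationary night blindness or rod degeneration.

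The libraries differed from each other in several ways. Total counts were 36085737, 46481382 and 37546884 in the saline libraries and 19834366, 13574949 and 15647739 in the microbead libraries, so every saline library was deeper than every microbead library. Depth did not limit the cascade, as the smallest count of any of the 8 genes in any library was 8009, for *Cnga1* in microbead replicate 2, with a counting error of 1.12%. Mitochondrial genes took 3.19, 3.30 and 3.57% of the counts in saline libraries and 10.6, 8.90 and 9.97% in microbead libraries, with no overlap. Library names in the sample records form separate series for the saline and microbead groups, while the names of the count columns run in order across both groups. Series and injection cannot be told apart in this design. Microbead replicate 1 stood apart from the other microbead libraries within the cascade: it had the highest level of its group for *Gngt1*, *Pde6g*, *Pde6b*, *Gnb1* and *Cnga1*, and the lowest for *Pde6a*. Saline replicate 1 was low in markers of retinal ganglion cells (RGCs), which summed to 329 CPM (counts per 1000000) there against 969 and 1249 CPM in the other saline libraries. Saline replicate 3 was high in lens markers, at 491 CPM against 73.0 and 35.3 CPM.

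None of the 8 cascade genes differed between the groups at an adjusted p under 0.05 with edgeR's quasi-likelihood test, where 12.8% of all tested genes did (6.46% higher and 6.31% lower in microbead retina). At an unadjusted p under 0.05 there were 3 of 8 (*Gnb1*, *Cnga1* and *Gngt1*), against 31.4% of all tested genes. The groups did not overlap for 2 of 8 (*Gnb1* and *Cnga1*, both lower in microbead retina), against 37.8% of all tested genes in either direction (18.8% higher and 18.9% lower). With DESeq2, 2 of 8 passed (*Gnb1* and *Cnga1*), against 20.2% of all genes tested there, and with limma-voom 1 of 8 (*Gnb1*), against 12.5%. With 8 genes, these shares lie near or below those of the retina at large, and they are no result about the cascade. Log2 fold changes, given here as microbead minus saline, were above 0 for 3 cascade genes and below 0 for 5, where 52.1% of all tested genes were below 0, with a median of -0.14 against -0.03 over all tested genes.

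**Figure D1:**
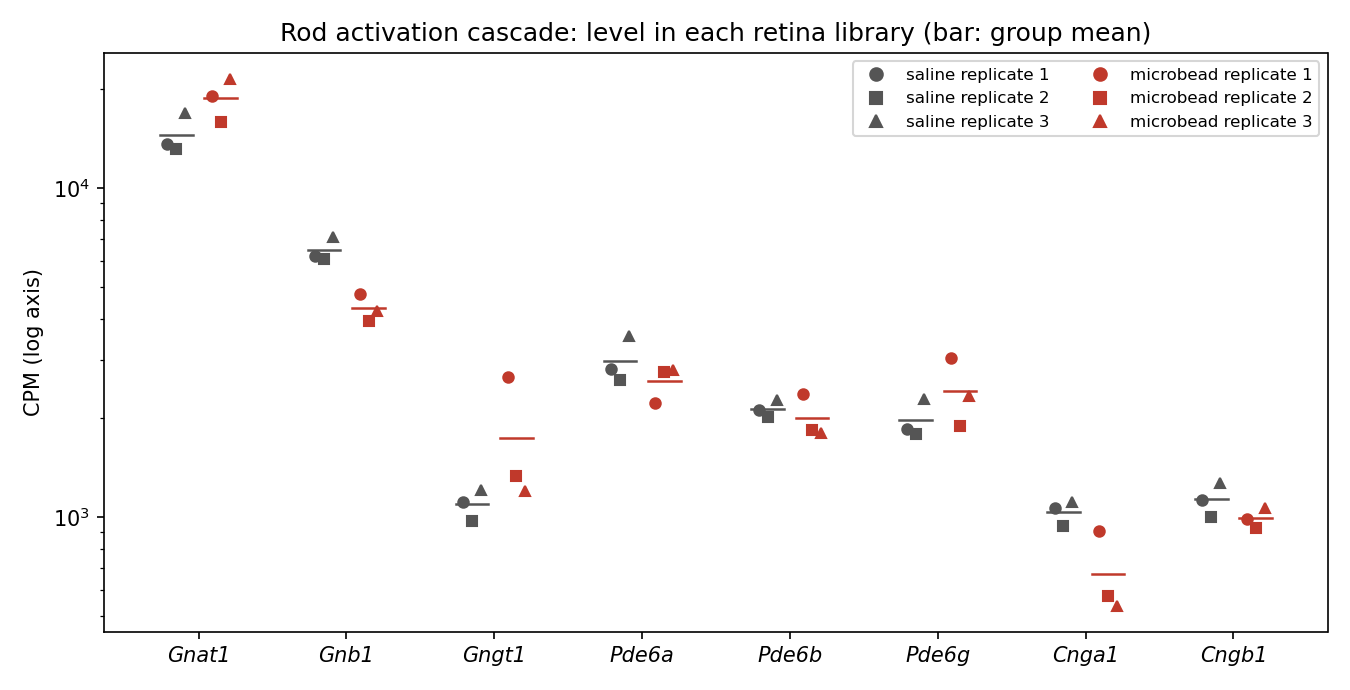
Level of each cascade gene in each library, in CPM on a log axis, for 3 saline libraries (gray) and 3 microbead libraries (red), with bars at the group means. The groups are apart for *Gnb1* and *Cnga1*, both lower in microbead retina, and microbead replicate 1 lies far above its group for *Gngt1*, at 2675 CPM against 1337 and 1206 CPM.

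Per kilobase of the principal transcript, the order of the mean levels in saline retina was *Gnat1* (6255 CPM per kb), *Pde6g* (2199), *Gnb1* (2059), *Gngt1* (929), *Pde6b* (763), *Pde6a* (653), *Cnga1* (379.9) and *Cngb1* (183 CPM per kb). The transcript of the transducin α subunit thus stood above all others of the cascade, and those of the channel below them. Neighbors in the middle of this order were not separate: the saline libraries overlapped between *Pde6g* and *Gnb1* and between *Pde6b* and *Pde6a*. In microbead retina the mean of *Gngt1* (1470.4 CPM per kb) came before that of *Gnb1* (1373 CPM per kb), with overlapping libraries, and the rest of the order was the same. The middle also depended on the length used. With the union of all annotated exons, an alternative chosen after seeing the data, *Gnat1* stayed first (4807 CPM per kb) and *Cnga1* and *Cngb1* last (164 and 121 CPM per kb), while *Gnb1* came before *Pde6g* (1517 against 854 CPM per kb), *Pde6a* before *Pde6b* (639 against 425 CPM per kb) and *Gngt1* after both of these (313 CPM per kb).

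The 8 genes together summed to 29900.2, 28561 and 35798 CPM in saline libraries and 35988, 29197 and 35431 CPM in microbead libraries. The mean was 31420.0 ± 3850.4 CPM (SD, n = 3) in saline and 33538 ± 3770.4 CPM (SD, n = 3) in microbead retina, and the groups overlapped. The share of *Gnat1* in this sum did not overlap between the groups. It was 45.4, 46.0 and 47.4% in saline libraries and 52.8, 54.5 and 60.5% in microbead libraries, so each microbead library was above every saline library. The other 7 genes summed to 16858 ± 1768 CPM and 14759 ± 1952 CPM (SD, n = 3 each) in saline and microbead retina, and overlapped. Sums, shares and ratios between genes were not tested. How often such values do not overlap between the groups for other genes was not counted. For single genes, 37.8% of all tested genes did not overlap, in either direction. In RNA of whole retina, fewer rods and less RNA per rod cannot be told apart.

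Transducin is the G protein of the cascade. *Gnat1*, on chromosome 9 (107674474 to 107679712, minus strand, GRCm38), encodes its α subunit of 350 amino acids in a principal transcript of 9 exons. Its levels were 13584, 13136 and 16965 CPM in saline libraries and 19013, 15903 and 21423 CPM in microbead libraries. Microbead replicates 1 and 3 were above every saline library, but microbead replicate 2 lay below saline replicate 3, so the groups overlapped. Means were 14562 ± 2093 and 18779.5 ± 2767 CPM (SD, n = 3 each), and the log2 fold change of 0.37 (standard error, SE, 0.21, 95% interval -0.10 to 0.83) did not pass edgeR's test (adjusted p = 0.256). With single libraries left out, it ran from 0.25 to 0.49.

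*Gnb1* encodes the β1 subunit, which forms the tight dimer with the rod γ subunit and is also made in many cells other than rods. It lies on chromosome 4 (155491361 to 155559269, plus strand) and its principal transcript has 12 exons. It was measured at 6221, 6078 and 7118 CPM in saline libraries and at 4774, 3942 and 4234 CPM in microbead libraries. All 3 microbead libraries were lower than all 3 saline libraries. The means were 6473 ± 564 and 4316 ± 422 CPM (SD, n = 3 each), a log2 fold change of -0.58 (standard error 0.18, 95% interval -0.99 to -0.18), with an unadjusted p of 0.00975 and an adjusted p of 0.0632 from edgeR. This call turned on the method: the adjusted p of *Gnb1* was 0.0120 with DESeq2, 0.0494 with limma-voom and 0.0320 with edgeR on total counts without TMM scaling. With single libraries left out, its log2 fold change ran from -0.67 to -0.51 and its adjusted p from edgeR from 0.0672 to 0.180.

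*Gngt1* encodes the rod γ subunit, a small farnesylated protein of 74 amino acids that helps anchor transducin to the disc membrane. The gene lies on chromosome 6 (3993792 to 3997436, plus strand) and its principal transcript of 3 exons is 1183 bases long. Its levels were 1113, 975 and 1209.7 CPM in saline libraries and 2675, 1337 and 1206 CPM in microbead libraries. Microbead replicate 1 was far above all other libraries, at 2.22 times the lowest of its group, and microbead replicate 3 lay within the saline range. The log2 fold change of 0.66 (standard error 0.30, unadjusted p = 0.0497, adjusted p = 0.158 from edgeR) was 0.21 (adjusted p = 0.487) without microbead replicate 1.

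Within the complex, the proportion of the subunit transcripts was taken in each library. The ratio of *Gnat1* to *Gnb1* CPM was 2.18, 2.16 and 2.38 in saline libraries and 3.98, 4.03 and 5.06 in microbead libraries. Every microbead library was thus above every saline library, by 0.95 on the log2 scale between the group means (0.84 to 1.01 with single libraries left out). A ratio within a library does not depend on how libraries are scaled to each other. The ratio of *Gnat1* to *Gngt1* was 12.2, 13.5 and 14.0 in saline libraries and 7.11, 11.9 and 17.8 in microbead libraries. Here the microbead libraries lay on both sides of the saline range, with replicate 1 the lowest and replicate 3 the highest, and the difference of -0.21 on the log2 scale was smaller than their spread (SD 0.66).

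PDE6 of rods holds the catalytic subunits α and β and a pair of inhibitory γ subunits. *Pde6a*, on chromosome 18, encodes the α subunit of 860 amino acids, and *Pde6b*, on chromosome 5 (108388391 to 108432397, plus strand), the β subunit of 856 amino acids, each in a principal transcript of 22 exons. *Pde6a* was measured at 2819, 2623 and 3546 CPM in saline libraries and at 2225, 2771 and 2808 CPM in microbead libraries. *Pde6b* was measured at 2118, 2015 and 2276 CPM in saline libraries and at 2363, 1840.4 and 1807 CPM in microbead libraries. For both genes the groups overlapped, and in microbead replicate 1 *Pde6a* had its lowest and *Pde6b* its highest level of all 6 libraries. The log2 fold change was -0.20 (standard error 0.20, 95% interval -0.65 to 0.24, adjusted p = 0.515 from edgeR) for *Pde6a*. For *Pde6b* it was -0.09 (standard error 0.18, 95% interval -0.51 to 0.32, adjusted p = 0.769 from edgeR). These intervals leave room for changes of -36.1 to 18.0% in *Pde6a* and of -29.6 to 24.8% in *Pde6b*. With single libraries left out, the log2 fold change ran from -0.29 to -0.07 in *Pde6a*, nearest to 0 without saline replicate 3, and from -0.23 (without microbead replicate 1) to -0.02 (without microbead replicate 2) in *Pde6b*.

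The inhibitory γ subunit, a protein of 87 amino acids, is encoded by *Pde6g* on chromosome 11 (120447605 to 120453500, minus strand). Its principal transcript of 900 bases in 4 exons is the shortest of the cascade. Levels were 1852, 1788 and 2297 CPM in saline libraries and 3041, 1894 and 2346 CPM in microbead libraries. Microbead replicate 1 was again the highest of its group, and microbead replicate 2 lay within the saline range. The log2 fold change of 0.29 (standard error 0.22, adjusted p = 0.391 from edgeR) was 0.09 (adjusted p = 0.798) without microbead replicate 1.

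The ratio of *Pde6a* to *Pde6b* was 1.33, 1.30 and 1.56 in saline libraries and 0.942, 1.51 and 1.55 in microbead libraries. Microbead replicates 2 and 3 lay within the saline range and microbead replicate 1 below it. The ratio of *Pde6g* to the geometric mean of *Pde6a* and *Pde6b* was 0.758, 0.778 and 0.809 in saline libraries and 1.33, 0.839 and 1.04 in microbead libraries. It was higher in each microbead library than in any saline library, by 0.43 on the log2 scale between the group means, with an SD of 0.33 among microbead libraries and 0.05 among saline libraries. The difference was 0.26 without microbead replicate 1 and 0.59 without microbead replicate 2.

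The channel of the rod outer segment is a tetramer of CNGA1 and CNGB1 subunits that lets sodium and calcium enter in darkness. *Cnga1*, on chromosome 5 (72603696 to 72644275, minus strand, 9 exons), encodes the pore-forming subunit of 684 amino acids. It was measured at 1067, 941 and 1113 CPM in saline libraries and at 907, 578 and 539.6 CPM in microbead libraries. All 3 microbead libraries were lower than all 3 saline libraries, although microbead replicate 1 lay close to saline replicate 2. The means were 1040.5 ± 89.5 and 675 ± 202 CPM (SD, n = 3 each), a log2 fold change of -0.62 (standard error 0.23, 95% interval -1.13 to -0.12, unadjusted p = 0.0209, adjusted p = 0.0941 from edgeR). Its adjusted p was 0.0498 with DESeq2, and from edgeR 0.0415 without the filter on low counts and 0.0445 without microbead replicate 1, where the log2 fold change was -0.90. With the other libraries left out 1 at a time, it stayed above the threshold.

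*Cngb1* encodes the modulatory subunit, with 1325 amino acids and 33 exons the longest of the cascade, on chromosome 8 (95239045 to 95306585, minus strand). Its levels were 1126, 1006 and 1274 CPM in saline libraries and 990.3, 930.3 and 1067 CPM in microbead libraries. Microbead replicates 1 and 2 lay below every saline library and microbead replicate 3 within their range. The log2 fold change was -0.19 (standard error 0.17, 95% interval -0.58 to 0.20, adjusted p = 0.495 from edgeR), and ran from -0.27 to -0.10 with single libraries left out, nearest to 0 without saline replicate 3. The ratio of *Cnga1* to *Cngb1* was 0.948, 0.935 and 0.874 in saline libraries and 0.915, 0.622 and 0.506 in microbead libraries. Microbead replicate 1 kept within the saline range and the other microbead libraries lay below it, so the groups overlapped, with a mean difference of -0.48 on the log2 scale (-0.71 without microbead replicate 1 and -0.28 without microbead replicate 3).

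**Figure D2:**
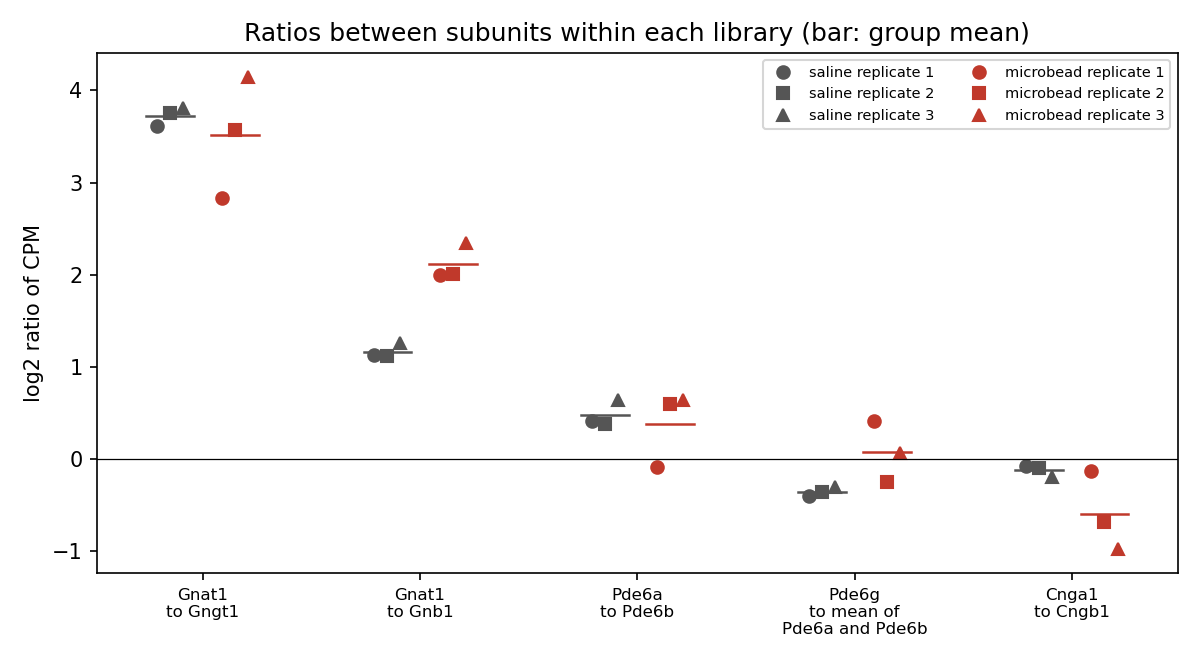
Log2 ratio of CPM between subunits of the same complex within each library, for 3 saline libraries (gray) and 3 microbead libraries (red), with bars at the group means. The groups are apart for *Gnat1* to *Gnb1* (difference 0.95) and for *Pde6g* to the mean of *Pde6a* and *Pde6b* on the log scale (difference 0.43), and overlap for the other ratios. Ratios of other genes were not counted for overlap, and 37.8% of all tested genes taken singly did not overlap.

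The genes with log2 fold changes above 0 (*Gnat1*, *Gngt1* and *Pde6g*) were also those with the shortest principal transcripts of the cascade, at 2328, 1183 and 900 bases, against 2739 bases or more for the other 5. Log2 fold change and exonic length were related over the retina at large as well, with a Spearman coefficient of -0.18 across 15044 tested genes of at least 1 CPM, which are not independent replicates. With an offset for GC content and exonic length in edgeR, an alternative chosen after seeing the data, the log2 fold changes of 6 of the 8 genes were nearer to 0 than without it: 0.24 for *Gnat1*, 0.54 for *Gngt1*, 0.12 for *Pde6g*, -0.06 for *Cngb1*, -0.06 for *Pde6b* and -0.58 for *Cnga1*. The other 2 were farther from 0, *Gnb1* at -0.62 and *Pde6a* by less than the printed digits show, at -0.21 against -0.20. No cascade gene passed the threshold with the offset, where 17.2% of all tested genes did, and 2 of 8 had an unadjusted p under 0.05. The ratios between subunits were taken without this offset. With library sizes summed without mitochondrial genes, 0 of 8 passed, where 1206 of 17707 tested genes were called higher and 1021 lower. In that fit 3 of 8 had an unadjusted p under 0.05. For the unadjusted p, the share over all tested genes is given only for edgeR without these changes (31.4%). No 100-base stretch of the 8 genes occurred in an annotated transcript of another locus, and none of their exons overlapped those of another gene.

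Cones use a parallel set of subunits, which allows each rod gene to be set beside its cone counterpart. Of 10 cone genes tested (the 7 subunit counterparts, both cone opsins and cone arrestin), 1 was called higher and 0 lower, against 6.46% and 6.31% of all tested genes, with a median log2 fold change of 0.03. The gene called was *Arr3*, which encodes cone arrestin: it was at 117, 109.7 and 65.1 CPM in saline libraries and at 252, 254 and 286 CPM in microbead libraries, all microbead libraries being above all saline libraries (edgeR log2 fold change 1.44, SE 0.23, adjusted p = 0.0126). It stayed past the threshold with 5 of the 6 libraries left out in turn, the exception being microbead replicate 3 (adjusted p = 0.0700).

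Among the transducin counterparts, the cone α subunit gene *Gnat2* had a log2 fold change of -0.37 (adjusted p = 0.214 from edgeR), opposite in sign to *Gnat1*. The cone γ subunit gene *Gngt2* was at 67.5, 63.3 and 73.5 CPM in saline libraries and at 181, 115 and 84.6 CPM in microbead libraries, with no overlap (log2 fold change 0.90, adjusted p = 0.0507 from edgeR). Like its rod counterpart, it was highest in microbead replicate 1. Its adjusted p was under 0.05 in edgeR with RLE scaling (0.0475), with library sizes without mitochondrial genes (0.0472), without the filter on low counts (0.00509) and with at least 10 counts in every library (0.0408), and also in DESeq2 (0.00798), but in none of the fits with a library left out (0.0712 to 0.157). The cone β subunit gene *Gnb3* was at 958, 360.0 and 393 CPM in saline libraries and at 720.4, 705 and 602.7 CPM in microbead libraries (log2 fold change 0.24, adjusted p = 0.665 from edgeR). Saline replicate 1 was the highest of all libraries for *Gnb3*, and without it the log2 fold change was 0.84 (adjusted p = 0.0269), while it was -0.00 without saline replicate 2. *Gnb3* is also made in ON bipolar cells, so its level is not that of cones alone.

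For the PDE6 and channel counterparts, log2 fold changes were 0.30 for the catalytic *Pde6c*, -0.44 for the inhibitory *Pde6h*, -0.18 for *Cnga3* and -0.24 for *Cngb3* (adjusted p = 0.398, 0.156, 0.597 and 0.513 from edgeR). *Pde6h* narrowly did not overlap between the groups, at 152, 130.9 and 181 CPM in saline libraries and 130.7, 117 and 95.4 CPM in microbead libraries. Differences between rod and cone counterparts were not tested. *Gngt2* and *Pde6h* overlap exons of *Abi3* and *Arhgdib* on the opposite strand, and whether counting used the strand is not given in the sources used here, so their levels are uncertain.

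**Figure D3:**
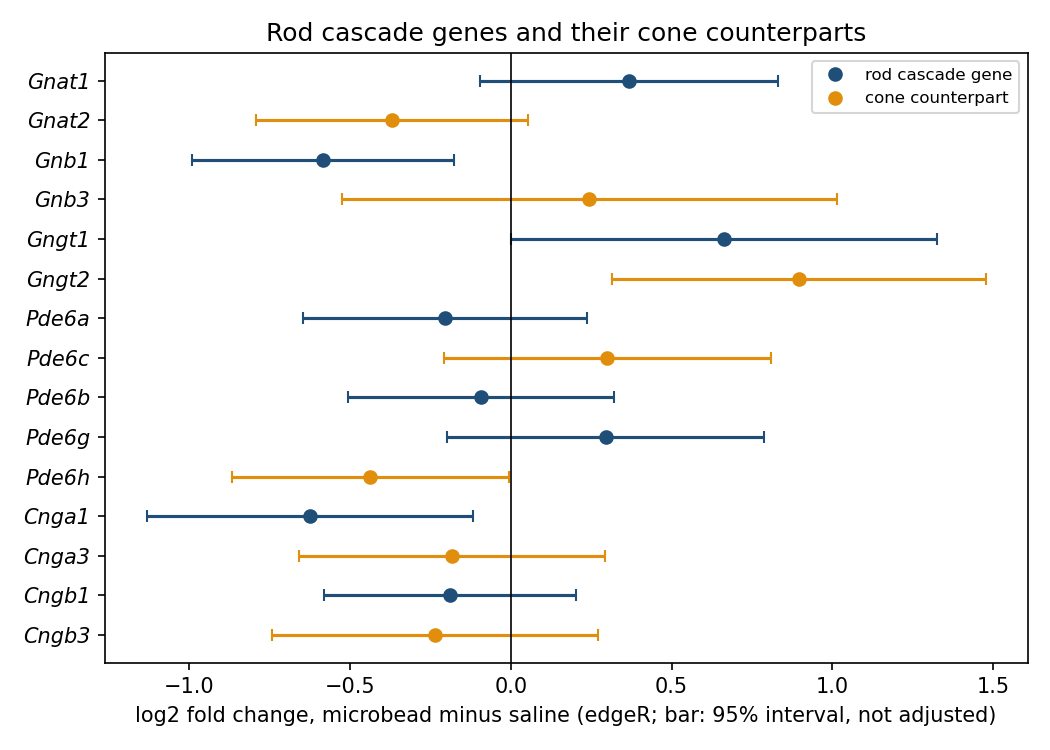
Log2 fold change (microbead minus saline) from edgeR for the 8 rod cascade genes (blue) and their 7 cone counterparts (orange), with 95% intervals that are not adjusted for multiple testing. Among rod genes the intervals of *Gnb1* and *Cnga1* lie below 0 and that of *Gngt1* just above it, and among cone genes that of *Pde6h* lies just below 0 and that of *Gngt2* above it, although none of the genes plotted had an adjusted p under 0.05.

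The proteins that end the light response and sense calcium act on the same cascade. Of 12 genes tested, 1 was called higher and 0 lower with edgeR, against 6.46% and 6.31% of all tested genes. DESeq2 called 1 higher and 3 lower (*Grk1*, *Guca1b* and *Gucy2f*), against 10.6% and 9.60% of all genes tested there, and limma-voom 1 higher and 0 lower. The log2 fold change was below 0 for 10 of 12 (median -0.32), against 52.1% of all tested genes (median -0.03). The gene called higher was *Pdc*, which encodes phosducin, a protein that binds the βγ dimer of transducin. It was at 1468, 1691 and 2562 CPM in saline libraries and at 4845, 3405 and 3282 CPM in microbead libraries, all of them above all saline libraries (edgeR log2 fold change 1.01, SE 0.26, adjusted p = 0.0362). With a library left out, it passed only without saline replicate 3, and its adjusted p ranged from 0.0160 to 0.122. With the offset for GC content and length, the list held 0 genes called higher and 1 lower: *Pdc* did not pass (log2 fold change 0.87, adjusted p = 0.0677 from edgeR), and *Guca1b*, which encodes a calcium sensor of guanylate cyclase, did (adjusted p = 0.0185). *Rgs9*, the GTPase-activating protein of transducin, was chosen after its values were seen: it was at 391, 413 and 414 CPM in saline libraries and at 49.3, 398 and 137 CPM in microbead libraries. Its microbead libraries ran from the saline level to far below it, with replicate 1 the lowest (edgeR log2 fold change -1.06, SE 0.57, adjusted p = 0.233).

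Among 12 genes for the maturation and trafficking of transducin and PDE6, 0 were called with edgeR, 0 with limma-voom and 1, lower, with DESeq2, and 3 had an unadjusted p under 0.05 from edgeR (median log2 fold change -0.00). The 10 other G protein β and γ subunit genes tested gave 0 calls with edgeR, 0 with limma-voom and 2, both higher, with DESeq2, and 3 had an unadjusted p under 0.05 from edgeR (median -0.04). Over all tested genes, these shares were 12.8% with edgeR, 12.5% with limma-voom, 20.2% with DESeq2 and 31.4% for the unadjusted p.

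Of 11 genes of outer segment structure tested, 2 were called lower, 0 higher and 9 did not pass with edgeR, against 6.31% of all tested genes called lower, and DESeq2 called 4 lower and 0 higher, against 9.60% called lower there. The log2 fold change was below 0 for 10 of 11 (median -0.32), against 52.1% of all tested genes, and the list as a whole was not tested. The genes called with edgeR were *Prom1*, which encodes a disc membrane protein, and *Rp1l1*, which encodes a protein of the photoreceptor axoneme. *Prom1* was at 820.2, 642 and 874 CPM in saline and at 474, 410.3 and 385 CPM in microbead libraries (edgeR log2 fold change -0.88, SE 0.19, adjusted p = 0.0222). *Rp1l1* was at 743, 647 and 663 CPM in saline and at 308, 447 and 387 CPM in microbead libraries (edgeR log2 fold change -0.85, SE 0.19, adjusted p = 0.0248). For both genes every microbead library was below every saline library, but neither passed in all fits with a library left out. The adjusted p of *Prom1* was over 0.05 without saline replicate 2, microbead replicate 2 or microbead replicate 3 (range over the 6 fits 0.0306 to 0.105), and that of *Rp1l1* without saline replicate 2, microbead replicate 1 or microbead replicate 3 (0.0346 to 0.104).

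Of 9 photoreceptor transcription factor genes tested, 1 was called lower and 1 higher (median log2 fold change 0.07), against 6.31% and 6.46% of all tested genes. *Nrl*, which specifies rod fate and activates rod genes, was at 1802, 1671 and 2053 CPM in saline libraries and at 1087, 758 and 978 CPM in microbead libraries. All microbead libraries were below all saline libraries (edgeR log2 fold change -0.97, SE 0.20, adjusted p = 0.0192). *Neurod1*, a factor for photoreceptor differentiation and survival, was at 420.0, 310.1 and 253 CPM in saline libraries and at 579, 579.8 and 609 CPM in microbead libraries, again with no overlap (edgeR log2 fold change 0.85, SE 0.21, adjusted p = 0.0322). With a library left out, *Nrl* did not pass without saline replicate 2, microbead replicate 2 or microbead replicate 3 (adjusted p over the 6 fits 0.0206 to 0.0883), and *Neurod1* passed only without saline replicate 1 (0.0137 to 0.123). Without microbead replicate 3, no gene of the cascade or of these pathway lists passed, and 46 of all tested genes did, against 2261 with all libraries.

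The CRX and NRL factors act on rod genes through short DNA elements, and the promoters of the cascade were searched for the core letters of these elements. RefSeq promoter windows (GRCm38.p6, 250 bases before to 50 bases after the start) matched 5 of the 8 genes, *Gnb1*, *Gngt1*, *Pde6b*, *Cnga1* and *Cngb1*, but not *Gnat1*, *Pde6a* or *Pde6g*. TAATCC, the core of the CRX site, was found on either strand (GGATTA on the other) in 3 of 5 windows, against 7.06% of 32851 promoters of the same length. TGCTGA, a core of the NRL site (TCAGCA on the other strand), was found in 1 of 5, that of *Pde6b*, 8 bases upstream of the start, against 19.5% of promoters. No window held both, so the matches did not overlap. The windows with TAATCC are shown for the positions of the matches, which stand in capitals, each read 5′ to 3′ on the strand of its gene. *Gngt1* has 1 match, 44 bases upstream of the start and on the opposite strand, *Cnga1* has 1 at 228 bases, and *Cngb1* has 2, at 58 and 25 bases. These distances, and that of *Pde6b*, are from the RefSeq start of each window. By the GENCODE positions given above, the matches of *Gngt1* and *Cnga1* lie inside the gene rather than upstream of it.
*Gngt1*, chr6:3993758-3994057, plus strand: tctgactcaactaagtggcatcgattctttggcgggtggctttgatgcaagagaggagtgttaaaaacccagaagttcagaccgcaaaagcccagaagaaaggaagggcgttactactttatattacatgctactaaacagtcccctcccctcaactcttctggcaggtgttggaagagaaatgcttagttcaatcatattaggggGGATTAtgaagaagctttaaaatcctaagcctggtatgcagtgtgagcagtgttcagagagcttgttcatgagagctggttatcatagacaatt
*Cnga1*, chr5:72642703-72643002, minus strand: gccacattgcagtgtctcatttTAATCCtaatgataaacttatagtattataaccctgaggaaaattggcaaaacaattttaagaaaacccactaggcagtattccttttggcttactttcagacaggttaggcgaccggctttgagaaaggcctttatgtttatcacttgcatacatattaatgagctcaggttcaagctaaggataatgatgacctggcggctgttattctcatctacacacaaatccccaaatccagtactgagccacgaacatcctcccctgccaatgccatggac
*Cngb1*, chr8:95306536-95306835, minus strand: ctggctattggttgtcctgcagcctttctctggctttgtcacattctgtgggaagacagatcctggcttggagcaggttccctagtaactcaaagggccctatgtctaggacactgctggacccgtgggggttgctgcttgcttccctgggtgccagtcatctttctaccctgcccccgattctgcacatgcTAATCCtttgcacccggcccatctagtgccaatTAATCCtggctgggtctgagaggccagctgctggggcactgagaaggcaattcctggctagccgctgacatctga
These 3 genes had log2 fold changes of 0.66, -0.62 and -0.19, so the windows with this motif belonged to genes on either side of 0, none of them past the threshold. Binding of either factor was not measured.

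Markers of other retinal cell types were counted in the same libraries. With edgeR, the lists that held calls were those of Müller glia, endothelial cells, horizontal cells and microglia, and every call was lower in microbead retina. Among all tested genes, 6.31% were called lower with edgeR, 52.1% had a log2 fold change below 0, and the median was -0.03. Of 10 Müller glia genes tested, 4 were called lower, and all 10 had a log2 fold change below 0 (median -0.40). The calls with the largest fold changes were *Sox9* (-1.46, adjusted p = 0.0373), *Crym* (-1.41, adjusted p = 0.0387) and *Dkk3* (-1.03, adjusted p = 0.0242, all from edgeR). With limma-voom, *Sox9* and *Crym* did not pass (adjusted p = 0.0695 and 0.0536). With a library left out, *Sox9* passed only without saline replicate 1 or 2 (adjusted p over the 6 edgeR fits 0.0274 to 0.147), *Crym* only without saline replicate 1, 2 or 3 (0.0297 to 0.156) and *Dkk3* only without saline replicate 1 or 3 (0.0124 to 0.113). The list summed to 5588, 6217 and 9347 CPM in saline libraries and to 5662, 5474 and 4654 CPM in microbead libraries, so the groups overlapped, and its most abundant gene was *Glul* (mean 2952 CPM).

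Of 10 endothelial genes, 4 were called lower (median -0.59), with the largest fold changes in *Tie1* (-1.23, adjusted p = 0.0262), *Esam* (-1.01, adjusted p = 0.0249) and *Cldn5* (-0.94, adjusted p = 0.0297, all from edgeR). With a library left out, *Tie1* and *Cldn5* passed only without saline replicate 1 (adjusted p over the 6 edgeR fits 0.0239 to 0.0924 and 0.0433 to 0.122), and *Esam* only without saline replicate 1, saline replicate 3 or microbead replicate 2 (0.0292 to 0.0971). Their sum was 492, 508 and 698 CPM in saline libraries and 341, 464 and 310.3 CPM in microbead libraries, with no overlap, and *Kdr* was the most abundant (mean 242 CPM). Of 5 horizontal cell genes, 1 was called lower, *Onecut2* (-1.36, adjusted p = 0.0335 from edgeR), and the list's median was -0.97. With a library left out, *Onecut2* passed only without saline replicate 1 or 3 (0.0297 to 0.109). The list's sum was 299, 365 and 359.8 CPM in saline libraries and 247, 288 and 218 CPM in microbead libraries, with no overlap and most of it from *Prox1* (mean 199 CPM). *Prox1* itself overlapped between the groups (log2 fold change -0.31, adjusted p = 0.288 from edgeR). Of 10 microglia genes, 1 was called lower with edgeR and 4 lower with DESeq2, against 9.60% of all genes tested there (median log2 fold change -0.43). The list held 0 calls with limma-voom, 0 with edgeR on total counts, and 0 in each of the 6 edgeR fits with a library left out. Their sums were 260.2, 85.3 and 123 CPM in saline and 142, 132 and 64.3 CPM in microbead libraries, which overlapped, with *C1qa* the most abundant (mean 24.9 CPM).

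No gene was called with edgeR in the lists for bipolar cells (median 0.01), amacrine cells (-0.32), RGCs (0.16), pigment epithelium (0.28) and lens (-0.31, 3 genes tested). In this order, unadjusted p-values under 0.05 from edgeR numbered 3, 4, 1, 1 and 0, against 31.4% of all tested genes. DESeq2 called 2, 2, 0, 1 and 0, against 20.2%, and limma-voom 0 in each. Among the DESeq2 calls, 1 bipolar, 1 amacrine and the pigment epithelium gene were higher in microbead retina (*Pcp2*, *Pax6* and *Rdh5*, log2 fold changes 0.61, 0.60 and 1.29). The other 2 were lower, *Lrtm1* of the bipolar list and *Gad1* of the amacrine list (log2 fold changes -0.73 and -0.76). RGC markers summed to 329, 969 and 1249 CPM in saline libraries and 1115, 831 and 1045 CPM in microbead libraries, where *Nefl* was the most abundant (mean 262 CPM). Markers of the pigment epithelium summed to 15.1, 62.3 and 261 CPM in saline libraries and 146, 122 and 138 CPM in microbead libraries, and the groups overlapped. Against 10 calls over all cell type lists, 0 were made without microbead replicate 1 or without microbead replicate 3, 2 without microbead replicate 2, 6 without saline replicate 2, 6 without saline replicate 3 and 16 without saline replicate 1. These were not all the same genes. Without saline replicate 1, they held 4 amacrine, 2 RGC and 1 bipolar gene, all lower. Without saline replicate 2, they were 4 of 7 lens genes tested there and 2 Müller glia genes, all lower. Without saline replicate 3, they held 2 pigment epithelium genes, both higher. No list had a marker at 0 in every library. The part of these cell types, or of the mitochondrial share, in the values of the cascade was not tested.

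For each cascade gene, the 1 gene of 4581 with the most similar profile over the 6 libraries was taken, by the root mean square difference of centered log2 CPM. Cascade genes were left out of this choice. These were *Chchd10* for *Gnat1* (difference 0.0222), *Arpc1a* for *Gnb1* (0.0321), *Ssu72* for *Gngt1* (0.0532), *Efhd2* for *Pde6a* (0.0839), *Cdc123* for *Pde6b* (0.0196), *Arl3* for *Pde6g* (0.0470), *Set* for *Cnga1* (0.0409) and *Ddost* for *Cngb1* (0.0296). Distances within the cascade were taken separately. With far fewer genes to choose from, they cannot be compared with those above. The closest pair within the cascade, *Pde6a* and *Cngb1*, differed by 0.126, and *Gngt1* was 0.275 from its closest, *Pde6g*. *Ssu72*, nearest to *Gngt1*, was at 81.1, 74.1 and 93.3 CPM in saline and 184, 99.4 and 89.6 CPM in microbead libraries, with its highest value in microbead replicate 1 as well.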

How the data were processed

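The authors prepared stranded poly(A) libraries, read them as 100-base pairs, aligned them with STAR 2.5.3a to GRCm38.p5 with GENCODE vM12, counted reads on genes with featureCounts 1.15.2, and deposited raw counts (versions from the submitters' processing notes). Settings for reads that map to several places and for strand are not given in the sources used here. The deposited table also holds the authors' DESeq2 comparison (mean normalized count, log2 fold change, fold change, p-value, adjusted p-value and a significance mark), which was not used.

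The filterByExpr function (minimum count 10, minimum total 15) set which genes were kept, libraries were scaled by TMM, and each gene was tested in edgeR 4.0.16 under R 4.3.3 by its two-sided quasi-likelihood test. Standard errors were derived from the log2 fold change and the F statistic of this test, and 95% intervals from these with t quantiles. P-values were adjusted by Benjamini-Hochberg over 17707 genes, with a threshold of 0.05. CPM are per 1000000 of the TMM-scaled library size. No library was a copy of another of its group, as the chi-square per degree of freedom between libraries of a group was 20.1 or more. Lengths, exons and positions came from GENCODE vM21, which held 99.5% of the genes. The steps were tested on simulated data.

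The members and the lists were chosen with earlier results of these data known. Named genes are the 8 cascade genes, their cone counterparts, and at most 3 called genes of each list with the largest absolute log2 fold change. For each cascade gene, the nearest tested gene outside the cascade with a mean of at least 50 CPM (log2 CPM with prior count 2) is named too. *Rgs9*, and list genes named only as the most abundant, stand outside this rule. So do genes named for a call with DESeq2 or with the offset (*Grk1*, *Guca1b*, *Gucy2f*, *Pcp2*, *Pax6*, *Rdh5*, *Lrtm1* and *Gad1*). Of the lists, *Septin4* and *Lim2* were not matched in the table. The result of 1 other list gene is not reported here, although the counts and sums hold it. The alternatives tried were other scalings (RLE, total counts, library sizes without mitochondrial genes), other filters (none, or 10 counts or more per library), other tools (DESeq2 1.42.0 and voom of limma 3.58.1), a block on replicate number, spline offsets (5 degrees of freedom) for length and GC content with and without that block, a threshold of 0.01, and leaving out single libraries.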

Additional observations from a re-analysis of the deposited data

How the results depend on the processing

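Across 128 refitted values of the 8 cascade genes under the alternatives, 128 kept their direction and 6 were past the threshold, which none was in the edgeR test reported. *Gnb1* passed with total count scaling (log2 fold change -0.60), DESeq2 (-0.56) and limma-voom (-0.59), and *Cnga1* without the filter on low counts (-0.68), with DESeq2 (-0.60) and without microbead replicate 1 (-0.90), so that the cascade held 1, 2, 1 and 1 calls with total count scaling, DESeq2, limma-voom and no filter. Over all genes, the 6 pathway lists and the other cell types, the calls of 2261, 6 and 10 became 3582, 15 and 19 with DESeq2, 3720, 15 and 26 without the filter, and 87, 0 and 0 at an adjusted p under 0.01. With libraries left out in turn, the calls ran from 0 to 1 in the cascade, from 46 to 2621 over all genes, from 0 to 7 in the pathway lists and from 0 to 16 in the other cell types, and the log2 fold change of *Cnga1* from -0.90 to -0.50. Without saline replicate 2, the log2 fold change of *Gnb3* turned from 0.24 to -0.0035, and without saline replicate 1 it was 0.84. Fewer libraries enter these fits, and the cause of the other shifts was not tested. The replicate numbers follow the order of the records. Deviations of same-numbered libraries correlated at -0.01, 0.14 and -0.01, and those of differently numbered libraries from -0.23 to 0.15. With 3 libraries per group, these values cannot show whether libraries were paired. With the replicate block, 905 genes in all, 3 of the pathway lists, 0 of the other cell types and 0 of the cascade were called, and with the block and the offset for GC content and length 5 of the other cell types. For the other named genes, 105 of 391 values under the alternatives lost a call and 6 gained one. Depth limited none of the cascade genes, and counting error is only part of the error between libraries.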
